A study of Rattus norvegicus with 24 samples.

Results

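The transcripts of 9 complement genes were examined in the kidney of male PKD/Mhm (Cy/+) rats, an inherited model of polycystic kidney disease. The genes were C1qa, C1qb and C1qc, C1r and C1s, C3, Cfb, Serping1 and Cd55, chosen by name as components or regulators of the complement system. All 9 of 9 were found among the 17334 genes of the expression files, and all 9 passed the filter on low counts that left 12778 genes for testing. RNA sequencing had been performed on the left kidney of 24 animals, 6 in each of 4 groups, at the age of 8 months and after 6 months of monthly treatment. Control animals (Ctrl) were untreated Cy/+ rats. The second group (CoCM) received medium conditioned by human skin-derived ABCB5+ stromal cells that had been kept together with macrophages derived from THP-1, a human monocytic leukaemia line, and stimulated with interferon gamma and lipopolysaccharide; the sources give both the intraperitoneal and the intravenous route for this medium. The remaining groups received the ABCB5+ cells themselves, by the intraperitoneal (i.p. ABCB5+) or the intravenous route (i.v. ABCB5+). All animals were enrolled as Cy/+ rats, which the paper told apart from rats without cysts by palpation of the abdomen. The cells are human in a rat host. No group of rats without cysts was analysed here, so the comparisons are between treatments of rats enrolled as cystic.

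Complement is a cascade of plasma and membrane proteins that marks and lyses targets. In the classical pathway the recognition protein C1q, assembled from the chains encoded by C1qa, C1qb and C1qc, carries the proteases C1r and C1s, which act on C4 and C2 to form an enzyme that cleaves C3; factor B (Cfb) provides the protease of the alternative pathway convertase. Serping1 encodes C1 inhibitor, which inactivates C1r and C1s, and Cd55 encodes decay-accelerating factor, a membrane protein that dissociates the convertases. Macrophages are the classical tissue source of C1q, stromal cells make C1r and C1s, and C3 can be made by tubular epithelium as well as by the liver.

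The C1q genes lie beside each other on chromosome 5 in the order C1qb, C1qc, C1qa, and C1r and C1s beside each other on chromosome 4, with 0 other annotated genes starting between neighbours in RefSeq (assembly GRCr8). RefSeq upstream sequences on GRCr8 were matched for 5 of the 9 genes, C3, C1qa, C1qb, C1r and Cd55. Those of C1qa and C1qb are shown because these genes varied together most closely among the genes with a sequence, and that of Cd55 because it varied apart from the rest. The sequences are the 250 bases before the transcription start on the minus strand, at chr5:154419934-154420183 for C1qa, chr5:154407828-154408077 for C1qb and chr13:44438102-44438351 for Cd55. Capitals mark matches to the letters GGAAGT (an ETS factor core) and TTCNNNGAA (a STAT, or GAS, element) on either strand.

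C1qa: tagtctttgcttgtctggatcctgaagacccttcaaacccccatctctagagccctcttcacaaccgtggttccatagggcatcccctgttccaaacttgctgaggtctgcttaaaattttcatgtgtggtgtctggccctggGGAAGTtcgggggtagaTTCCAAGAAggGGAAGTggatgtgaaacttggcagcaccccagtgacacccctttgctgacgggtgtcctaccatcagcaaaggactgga

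C1qb: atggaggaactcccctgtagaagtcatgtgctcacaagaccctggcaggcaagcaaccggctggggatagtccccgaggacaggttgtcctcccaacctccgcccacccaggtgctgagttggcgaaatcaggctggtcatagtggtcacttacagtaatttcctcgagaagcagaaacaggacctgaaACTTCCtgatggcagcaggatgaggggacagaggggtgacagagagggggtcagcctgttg

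Cd55: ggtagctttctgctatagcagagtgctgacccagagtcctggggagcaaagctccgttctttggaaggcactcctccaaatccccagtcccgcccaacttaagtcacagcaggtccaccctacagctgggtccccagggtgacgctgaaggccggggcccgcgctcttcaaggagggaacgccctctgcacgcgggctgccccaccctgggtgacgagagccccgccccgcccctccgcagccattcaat

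C1qa held GGAAGT at -107 to -102 and again at -79 to -74, counted from the start site, and the GAS letters TTCCAAGAA at -90 to -82 between them. C1qb held the ETS core at -61 to -56, where the printed strand reads ACTTCC. Across 33469 RefSeq promoters of the same length, 19.2% held GGAAGT and 7.67% held the GAS letters. No match to the interferon-stimulated letters GAAANNGAAA (3.41% of promoters), the longer PU.1 letters GAGGAAGT that contain the ETS core (2.04%), TATAAA (12.9%), CCAAT (34%) or the kappa B motif (3.54%) was found in any of the 5 windows. The ETS core was added to the search after the sequences had been seen. The G+C content was 52.4% in C1qa, 56.8% in C1qb and 64.4% in Cd55.

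Library totals ranged from 9304630 to 14125457 estimated counts. On the first principal component of all genes, which held 56.3% of the variance, 4 treated animals stood apart from the other 20: CoCM animal 39, i.p. animal 38 and i.v. animals 36 and 37, with scores between 80.8 and 97.4 against a next highest score of 11.5. No control animal was among them. Control animals carry the numbers 1 to 24 and treated animals 26 to 43, so that animal numbering and treatment cannot be told apart. The fold changes of the 9 genes are therefore given with these 4 animals and without them.

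On the TPM scale, which corrects for transcript length and library size, the 9 genes covered a wide range of abundance. The C1 inhibitor transcript Serping1 was the most abundant of them, with a mean over all animals of 369 ± 126 TPM (SD, n = 24), and it exceeded C1r in 24 of 24 animals. The C1 transcripts followed as a group, with means of 194.5 ± 101 TPM for C1r, 174 ± 81.2 for C1qc, 164 ± 75.2 for C1qa, 156.5 ± 82.4 for C1s and 136.5 ± 67.1 for C1qb (SD, n = 24). Their order was not fixed between animals: C1r exceeded C1qc in 17, C1qc exceeded C1qa in 18, C1qa exceeded C1s in 14 and C1s exceeded C1qb in 17 of 24 animals. C3 was far lower, at 24.5 ± 14.2 TPM, and lay below C1qb in 24 of 24 animals. Cd55 averaged 14.5 ± 3.87 TPM and Cfb 12.9 ± 4.95 TPM (SD, n = 24). C3 exceeded Cd55 in 20 animals, while Cd55 exceeded Cfb in only 10 of 24, so the least abundant pair could not be ordered.

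**Figure D1:**
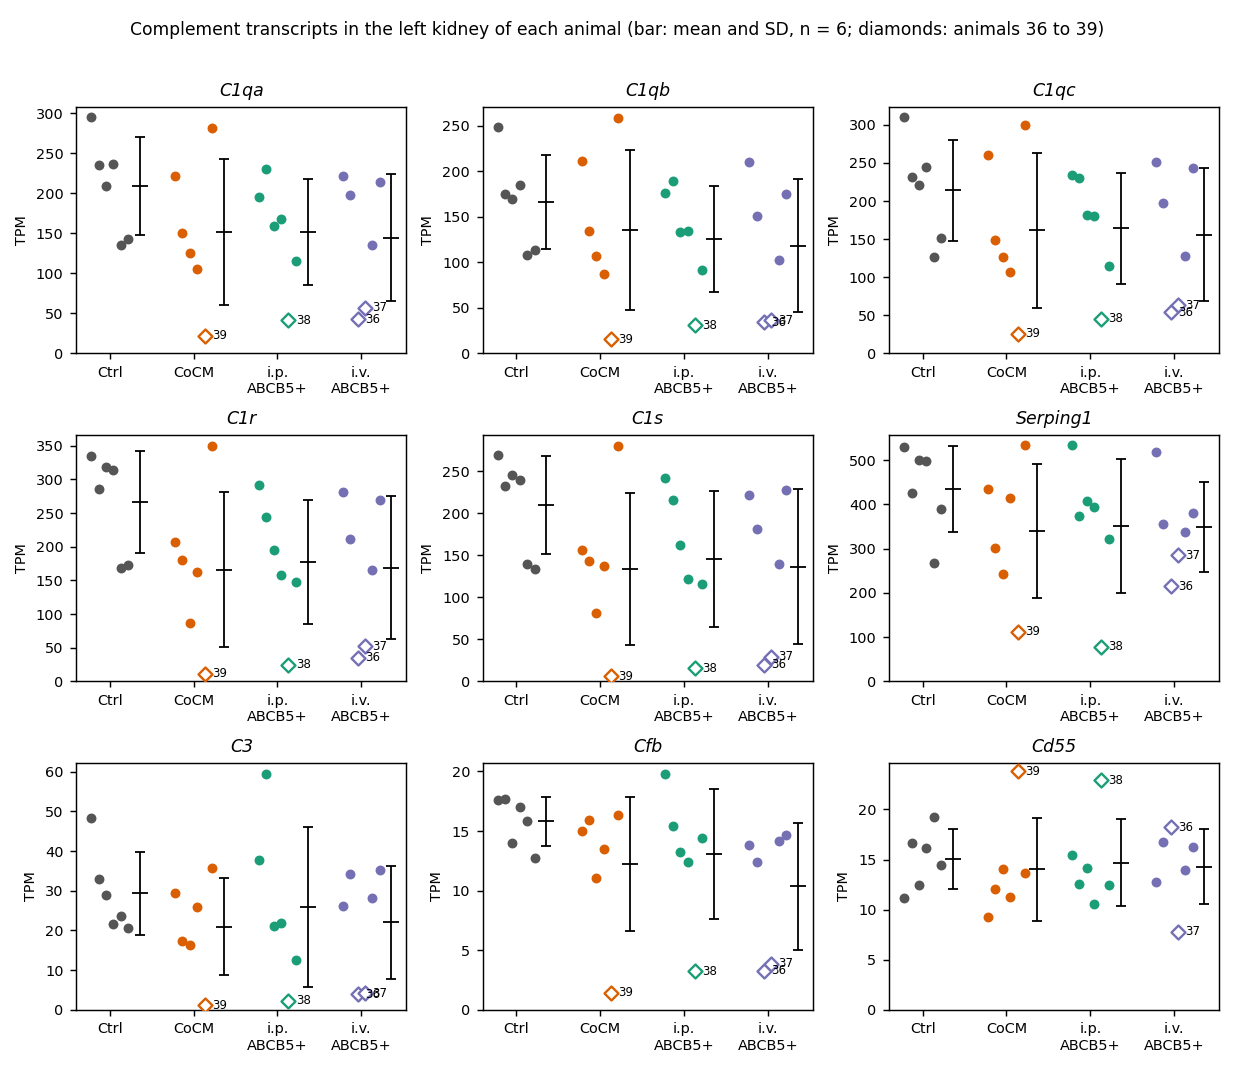
Abundance of the 9 complement transcripts in TPM (vertical axes, from 0) in each animal of the 4 groups, with the mean and SD of 6 animals as a bar to the right of the points. Animals 36 to 39, drawn as open diamonds, lie below every other animal for C1qa, C1qb, C1qc, C1r, C1s, C3 and Cfb, whereas Cd55 spreads from 7.80 to 23.9 TPM and is highest in animals 39 and 38.

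Whether treatment altered complement expression was addressed by comparing each treated group with Ctrl. None of the 9 genes passed an adjusted p of 0.05 in any comparison (edgeR quasi-likelihood test, adjusted over 12778 genes), and 0 of 9 had an unadjusted p under 0.05 in the same tests or with DESeq2 or limma. In the whole transcriptome, 0.00783% of genes passed the adjusted threshold in CoCM against Ctrl, and 0% in i.p. ABCB5+ against Ctrl, i.v. ABCB5+ against Ctrl, i.p. against i.v. ABCB5+ and over the 4 groups. At an unadjusted p under 0.05 the corresponding shares were 11.9% for CoCM, 1.77% for i.p., 5.78% for i.v., 2.14% for i.p. against i.v. and 4.71% over the 4 groups. The fitted fold change was below 0 for 8 of the 9 genes in each comparison with Ctrl, with medians of -0.34 for CoCM, -0.40 for i.p. and -0.50 for i.v. on the log2 scale; the 3 comparisons share their control animals. Over all genes tested the medians were 0.0088, 0.0037 and 0.013, and 48.6%, 49% and 47.4% of the fold changes were below 0. Without animals 36 to 39 the medians of the 9 genes were -0.175 for CoCM, -0.216 for i.p. and -0.165 for i.v., and again 8 of 9 were below 0 in each comparison. Single animals also moved the medians: without control animal 1 they were -0.184, -0.224 and -0.306. The CoCM median was -0.167 without animal 39, -0.552 without animal 26 and -0.591 without animal 40. The i.p. median was -0.227 without animal 38 and -0.554 without animal 30. The i.v. median was -0.321 without animal 36 and -0.714 without animal 28.

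The C1q transcripts had higher medians in Ctrl than in the treated groups, which reached lower values. For C1qa the coefficient of variation was 29.1% in Ctrl and 28.6% in the treated animals outside 36 to 39. C1qa ranged from 136 to 295 TPM in Ctrl, with a median of 222. The CoCM animals ranged from 21.8 to 282 TPM with a median of 138. The i.p. animals ranged from 41.6 to 230.2 TPM with a median of 163.5, and the i.v. animals from 42.5 to 221 TPM with a median of 166.5. In each treated group the lowest value, and in the i.v. group both of the lowest, came from animals 36 to 39, while the remaining treated animals, at 104.8 to 282 TPM, overlapped the controls. C1qb had a Ctrl median of 172 TPM (108.5 to 248) and medians of 120.3 (15.4 to 259), 133 (30.7 to 189) and 127 (34.15 to 209.8) TPM in the CoCM, i.p. and i.v. groups. C1qc had a Ctrl median of 226 TPM (127 to 309.9) and medians of 138 (25.6 to 299), 181 (45.2 to 234) and 162 (54.0 to 250.6) TPM. The fold changes of the C1q genes against Ctrl lay between -0.53 and -0.23 on the log2 scale, with standard errors of 0.44 to 0.48 and adjusted p values of 0.668 to 0.978. The 95% intervals of C1qa were -1.30 to 0.51 for CoCM, -1.39 to 0.43 for i.p. and -1.44 to 0.38 for i.v., all including 0. Without the 4 animals the fold changes were -0.18, -0.29 and -0.17 for C1qa, 0.00044, -0.23 and -0.10 for C1qb, and -0.12, -0.22 and -0.11 for C1qc.

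With all 24 animals, C1r and C1s had the most negative fold changes of the 9 genes in all comparisons with Ctrl. C1r ranged from 168 to 335 TPM in Ctrl with a median of 300.1, from 11.3 to 349 with a median of 171 in CoCM, from 25.0 to 292 with a median of 176 in i.p., and from 35.2 to 281.5 with a median of 188 in i.v. ABCB5+ animals. Among the controls, animals 23 and 24 (168 and 172.5 TPM) lay well below the other 4 (286 to 335 TPM), so that the control group itself was split. C1s had the same form, with 134 to 269 TPM in Ctrl (median 235.5), 6.41 to 279.6 in CoCM (median 140.5), 15.5 to 241 in i.p. (median 142) and 19.98 to 228 in i.v. (median 160.3). The log2 fold changes of C1r were -0.62 ± 0.55 (SE) for CoCM, -0.62 ± 0.55 for i.p. and -0.66 ± 0.55 for i.v., with adjusted p values of 0.604, 0.978 and 0.693. For C1s they were -0.59 ± 0.61, -0.56 ± 0.61 and -0.64 ± 0.61 (SE), with adjusted p values of 0.646, 0.978 and 0.713. Without the 4 animals C1r was at -0.38, -0.39 and -0.24, and C1s at -0.34, -0.32 and -0.17. In the i.v. comparison Cfb, at -0.23, was then more negative than C1s. Groups overlapped for both genes, and exact two-sided permutation of log2 CPM (counts scaled to library size) between 6 and 6 animals gave p values of 0.117 to 0.158 for them against Ctrl, where 0.00216 is the smallest p such a test can give.

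Serping1 varied less than its target proteases. It ranged from 266 to 530.3 TPM in Ctrl (median 461), from 113 to 533 in CoCM (median 358), from 78.9 to 534 in i.p. (median 384) and from 216 to 518 in i.v. ABCB5+ (median 347). The lowest animal of each treated group was again one of the 4 set apart, yet i.v. animal 37, at 285 TPM, lay within the range of the others. The log2 fold changes were -0.29, -0.31 and -0.27, each with a standard error of 0.32, and adjusted p values were 0.676, 0.978 and 0.760. Without the 4 animals they were nearer 0, at -0.12, -0.11 and -0.17. Among the 20 animals outside 36 to 39 the coefficient of variation was 21.98% for Serping1, against 31.4% for C1s and 32.6% for C1r.

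C3, on which the pathways converge, was highest in an i.p. animal and lowest in a CoCM animal. Its range was 20.5 to 48.25 TPM in Ctrl (median 26.25), 1.08 to 35.7 in CoCM (median 21.7), 2.29 to 59.3 in i.p. (median 21.4) and 3.98 to 35.3 in i.v. ABCB5+ (median 27.2). The group means were 29.3, 21.0, 25.8 and 22 TPM; without the 4 animals they were 24.97, 30.5 and 30.97 TPM in the CoCM, i.p. and i.v. groups. The log2 fold changes were -0.42, -0.23 and -0.44 with a standard error of 0.61 each, and adjusted p values were 0.747, 0.978 and 0.784; without the 4 animals they were -0.18, 0.014 and 0.022, so that the direction turned for both cell treatments. Cfb was the steadiest of the 9 genes in Ctrl, with 12.7 to 17.7 TPM, a median of 16.4 and a coefficient of variation of 12.95%. CoCM animals had 1.41 to 16.35 TPM (median 14.3), i.p. animals 3.26 to 19.8 (median 13.8) and i.v. animals 3.28 to 14.7 (median 13.1). The log2 fold changes of Cfb were -0.29, -0.26 and -0.59 with a standard error of 0.40, and adjusted p values were 0.733, 0.978 and 0.677. In the i.v. group all 6 of 6 animals lay below the Ctrl mean of 15.8 TPM, and the exact permutation test gave p = 0.0325, unadjusted and the only one under 0.05 among 36 such tests. Without animals 36 to 39 the fold changes of Cfb were -0.066 for CoCM, -0.068 for i.p. and -0.23 for i.v. (edgeR, unadjusted p = 0.0975).

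Cd55 behaved differently from the other 8 genes. It ranged from 11.1 to 19.3 TPM in Ctrl (median 15.3), 9.27 to 23.9 in CoCM (median 12.85), 10.5 to 22.9 in i.p. (median 13.4) and 7.80 to 18.2 in i.v. ABCB5+ (median 15.1). The highest values of the series came from CoCM animal 39 and i.p. animal 38, the animals with the least C3 and C1s, whereas i.v. animal 37 held the lowest. The log2 fold changes were 0.035, 0.067 and 0.012 with a standard error of 0.23 each, and adjusted p values were 0.953, 0.980 and 0.986. Without the 4 animals the estimates became negative, at -0.24 ± 0.11 (SE) for CoCM with an unadjusted p of 0.0528 and an adjusted p of 0.298, -0.18 for i.p. and -0.032 for i.v. ABCB5+.

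**Figure D2:**
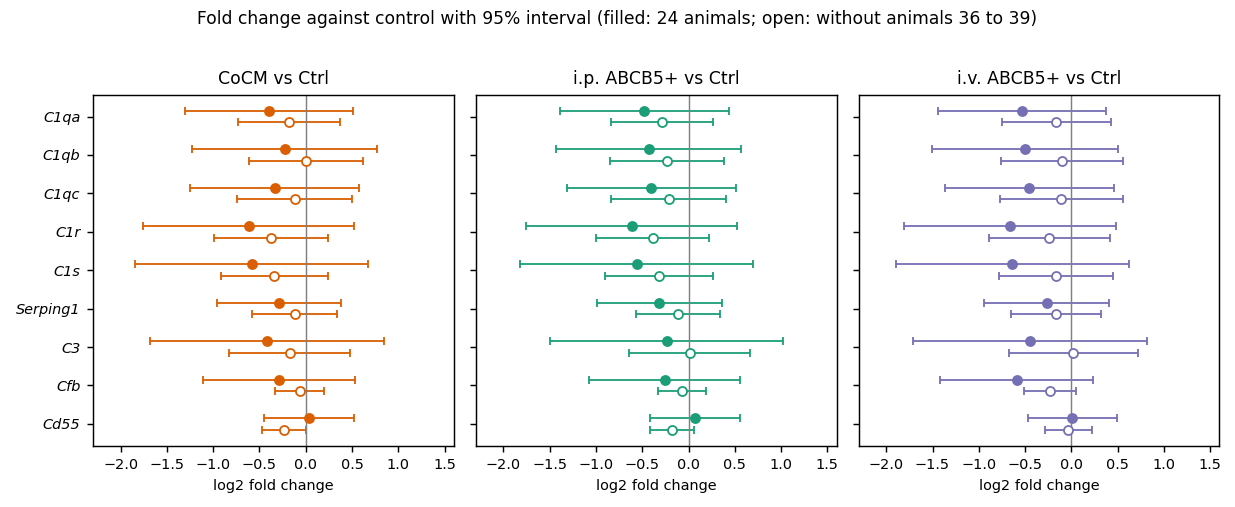
Log2 fold change of each gene against Ctrl (horizontal axis) with its 95% interval from the edgeR fit, in 1 panel per treatment; filled circles use all 24 animals and open circles leave out animals 36 to 39. With all 24 animals every interval includes 0, and without the 4 animals the estimates of the other 8 genes move towards 0 while those of Cd55 become negative.

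No difference between the 2 routes of cell delivery passed the test. Between i.p. and i.v. ABCB5+ the fold changes of the 9 genes lay between -0.047 for Serping1 and 0.33 for Cfb on the log2 scale, with a median of 0.055 and 8 of 9 above 0. Without animals 36 to 39 the direction turned for most of them: 7 of 9 were below 0, the median was -0.12, Serping1 was at 0.055 and Cfb at 0.17. With all animals the 95% interval was -0.49 to 1.16 for Cfb and -0.43 to 0.54 for Cd55, and it reached from -1.18 to 1.33 for C1s, so for C1s the interval spans changes of over 1 log2 unit in either direction. Over the 4 groups the unadjusted p values ran from 0.539 for Cfb to 0.992 for Cd55, and without the 4 animals from 0.168 for Cd55 to 0.922 for C3.

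The lowest values of most of these genes were held by the 4 animals set apart. C3, C1qa, C1qb, C1qc, C1r, C1s and Cfb were below all 20 other animals in 4 of 4, and Serping1 in 3 of 4. These animals were set apart on a component to which the same genes contribute, and the values are a description without a test. The share of all tested genes that separate in this way was not counted, so these counts cannot show whether complement stands out. Relative to the median of the other animals of its own group, C3 stood at 0.041 in animal 39 of the CoCM group, at 0.105 in animal 38 and at 0.128 and 0.134 in animals 36 and 37. C1s stood at 0.045 to 0.147 of the group median, followed by C1r at 0.063 to 0.219. The C1q genes stood at 0.115 to 0.286 and Cfb at 0.094 to 0.275. Serping1 stood at 0.20 to 0.77, and Cd55 ranged from 0.52 to 1.98. The lowest C3 value rested on 41 estimated counts and the lowest C1s value on 135.

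The same animals had low values of marker genes for several cell types. The summed level of 10 macrophage markers was 277 to 732 TPM in animals 36 to 39 and 1753 to 4116 TPM in the other 20, with 10 of 10 markers below all other animals. In the groups it ranged from 2040 to 4112 TPM in Ctrl, 277 to 4116 in CoCM, 512 to 3521 in i.p. and 601 to 3575 in i.v. ABCB5+. Lymphocyte markers (9 of 10 in the files) summed to 13.5 to 30.8 TPM against 132 to 339.6, with 9 of 9 below all other animals. Fibroblast markers summed to 252 to 345 against 454 to 1787 TPM, with 8 of 10 below all others, and injured tubule markers to 1125 to 1426 against 8698 to 16879 TPM, with 8 of 10 below; Clu, itself a complement regulator, is one of these. The summed level of proximal tubule markers went the other way, at 9670 to 22576 TPM against 1257 to 10914, and 2 of 10 exceeded all other animals. Kap, at 5572 to 13940 TPM, was the largest part of this sum in animals 36 to 39. Not every marker of the list was higher. Slc5a12, at 9.22 to 23.73 TPM, lay below the median of the other animals (28.66 TPM). Slc5a2 lay below that median (99.06 TPM) in animals 36, 38 and 39 and above it in animal 37 (143.3 TPM). Endothelial markers overlapped, at 296 to 408 against 225 to 544 TPM. Of 6 hepatocyte markers Alb, Apoa1 and Ttr were too low to be tested; the list summed to 1.501 to 7.71 TPM against 9.83 to 21.95, and Fgb, a chain of fibrinogen, was below all other animals at 1.22 to 4.38 against 5.05 to 15.1 TPM. The counts of markers below all other animals were likewise not set against the share of all genes. In whole tissue, fewer cells of a type and less RNA per cell cannot be told apart, and the part of these cell types in the complement values was not tested.

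Despite the spread between animals, the ratios between subunits were narrow. Among the 20 other animals the TPM ratio of C1qa to C1qb was 1.05 to 1.35, that of C1qc to C1qb 1.11 to 1.40, and that of C1r to C1s 1.07 to 1.32, with coefficients of variation of 7.12%, 6.13% and 5.38%. Over the same animals each gene alone varied by 28.9% to 32.6%. C1r/C1s was 1.61 to 1.78 and C1qc/C1qb 1.47 to 1.73 in animals 36 to 39, outside the range of the others, whereas C1qa/C1qb (1.24 to 1.56) overlapped it. Ratios across the cascade were looser. C1qa/C1s ranged from 0.76 to 1.54 in the 20 animals and from 1.93 to 3.39 in the 4, and Serping1/C1s from 1.68 to 3.25 and from 5.08 to 17.6.

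**Figure D3:**
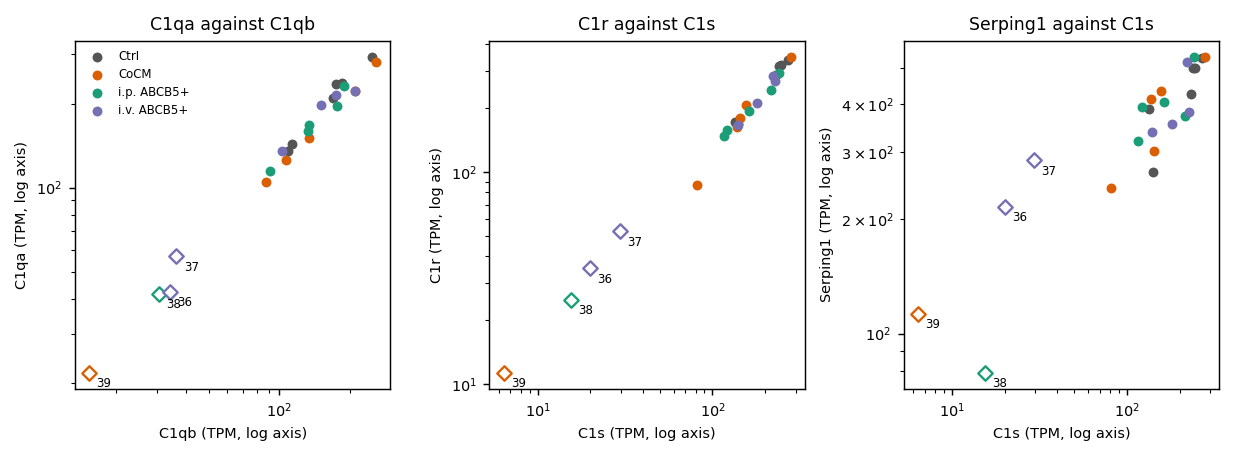
TPM of C1qa against C1qb, C1r against C1s and Serping1 against C1s (log axes) in each animal, coloured by group, with animals 36 to 39 as open diamonds. The C1q pair lies along a line over the whole range. In animals 36 to 39 the C1r/C1s ratio is 1.61 to 1.78 against 1.07 to 1.32 in the other animals. The Serping1/C1s ratio is 5.08 to 17.6 against 1.68 to 3.25.

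Co-variation between animals was measured as the correlation of log2 CPM after removal of the group means, over the 20 animals outside 36 to 39, with permutation within groups and adjustment over 36 pairs. In 27 of 36 pairs the adjusted p was under 0.05. How often pairs of other genes correlate at this level was not determined, so the count cannot show co-variation particular to complement. The C1q pairs had Pearson r of 0.986 to 0.990 (Spearman rho 0.977 to 0.991) and C1r with C1s had r = 0.990 (rho = 0.982), each with a permutation p of 1e-05, the smallest that 100000 permutations can give, and an adjusted p of 9e-05. Leaving out the 2 animals farthest from the median of the first gene left r at 0.980 to 0.988 in these pairs. C1q with C1r or C1s gave r of 0.853 to 0.865. Serping1 followed C1r (r = 0.855, rho = 0.841, permutation p = 2e-05, adjusted p = 0.00014) and C1s (r = 0.814, rho = 0.777, permutation p = 9e-05, adjusted p = 0.00032). C3 was more loosely tied, with r from 0.479 with Serping1 to 0.707 with C1s, and with Cfb its r was 0.422 (rho = 0.490, permutation p = 0.092, adjusted p = 0.12). Cd55 had a negative r with each of the other 8 genes, from -0.182 to -0.426, none under 0.05 after adjustment; on log2(TPM + 1) the r was -0.057 with C1s and turned to 0.136 with Cfb. No value is given over all 24 animals, because the 4 stand apart from the rest.

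**Figure D4:**
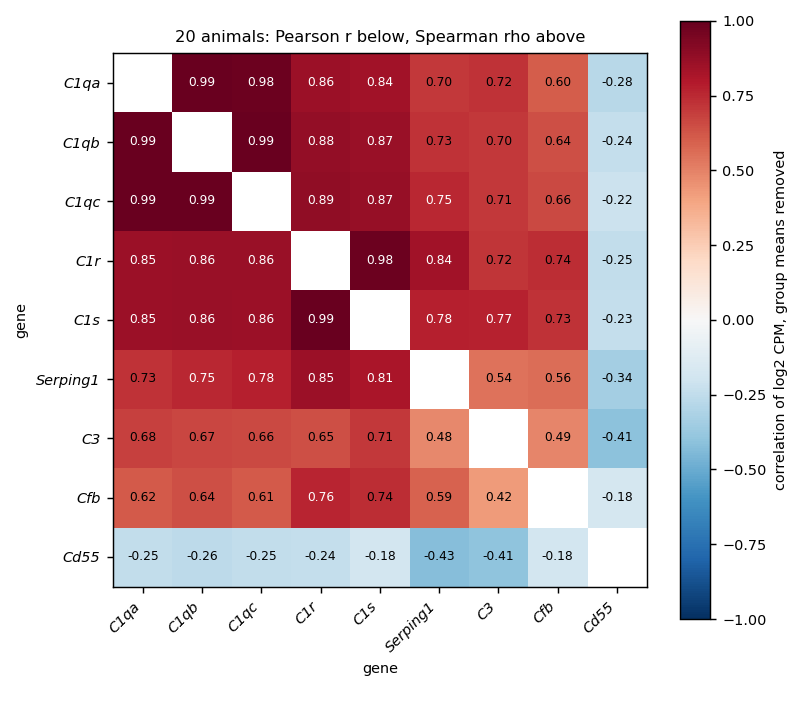
Correlation between the 9 genes (colour from -1 in blue to 1 in red, values printed) of log2 CPM after removal of the group means, over 20 animals, as Pearson r below the diagonal and Spearman rho above it. The C1q block and the C1r-C1s pair reach 0.99, and Cd55 is negative against every other gene, with r between -0.18 and -0.43.

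The 9 genes were also set beside the level of 5 marker lists, taken as the mean of group-centred log2 CPM of each list. Of 45 pairs of a gene and a marker list, 29 had an adjusted p under 0.05 over the 20 animals. The share of all genes that follow these lists as closely was not determined. C1qa, C1qb and C1qc followed the macrophage list (r = 0.984, 0.978 and 0.989, rho = 0.976, 0.977 and 0.982, each with a permutation p of 1e-05 and an adjusted p of 9e-05). C1r (r = 0.932, rho = 0.932), C1s (r = 0.918, rho = 0.920) and Serping1 (r = 0.885, rho = 0.836) had their highest r with the fibroblast list, with permutation p of 1e-05, 1e-05 and 4e-05 and adjusted p of 9e-05, 9e-05 and 0.00022, as had Cfb (r = 0.823, rho = 0.818, permutation p = 0.00014, adjusted p = 0.00048). C3 had its highest r with the lymphocyte list (r = 0.829, rho = 0.896, permutation p = 2e-05, adjusted p = 0.00015). For Cd55 the injured tubule list gave r = -0.668 (rho = -0.632, permutation p = 0.0038, adjusted p = 0.0078), which was -0.484 without 2 animals and -0.354 on log2(TPM + 1). Differences between these correlations were not tested, and the lists are themselves related, since C1qa also had r = 0.860 with the fibroblast list.

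Of 11653 genes with a symbol and sufficient counts, those most like each gene over the 20 animals were listed by r alone. The 3 nearest to C1qa were C1qb (0.989), C1qc (0.986) and RT1-DMa (0.971), a chain of the class II antigen-loading machinery. After the other C1q genes, C1qb and C1qc lay nearest to Clec10a, a lectin of macrophages and dendritic cells (0.977 and 0.984). C1s was followed by C1r (0.990), Igsf10 (0.972) and Pknox2 (0.962), and C1r by C1s, Fbln5 (0.975), a protein of elastic fibres, and Vstm4 (0.973). Serping1 lay nearest to Dcn (0.913), the matrix proteoglycan decorin and one of the fibroblast markers, Itgbl1 (0.911) and C1qtnf5 (0.910). C3 lay nearest to Stk17b (0.941), the proliferation marker Mki67 (0.925) and Arhgap11a (0.920). Cfb lay nearest to Fgf12 (0.896), Lix1l (0.891) and the tubulin gene Tubb6 (0.881), and Cd55 to Gimap9 (0.860), Rapgef3 (0.819) and Nphs1 (0.817), which encodes nephrin of the podocyte slit diaphragm.

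No gene of the rest of the pathway passed the threshold against Ctrl. Of 43 further complement genes, 39 were in the files, 32 were tested, and 0 passed the adjusted threshold in any comparison with Ctrl by edgeR, DESeq2 or limma. At an unadjusted p under 0.05 there were 3 of 96 results (3.12%) with edgeR, against 6.49% over all genes in the same 3 comparisons. The shares were 3.6% against 6.05% with DESeq2, 6.25% against 4.91% with limma on log2(TPM + 1), 14.6% against 12.7% with limma voom and sample quality weights, and 4.17% against 6.51% with edgeR without animals 36 to 39. In CoCM, C4bpb, a chain of the C4-binding protein, had a fold change of 0.95 (edgeR, adjusted p = 0.381) and C3ar1, the C3a receptor, of -0.94 (adjusted p = 0.396); in i.v. ABCB5+, Cr1l had -0.16 (adjusted p = 0.673). Without animals 36 to 39 these were 0.68, -0.75 and -0.079. C4bpb ranged from 1.13 to 1.92 TPM in Ctrl and from 1.08 to 5.47 TPM in CoCM, where the groups overlapped; animal 39 stood at 3.95 times the median of its group, and without it the CoCM median was 1.22 TPM, below the 1.47 TPM of Ctrl. C3ar1 ranged from 1.80 to 4.92 TPM in Ctrl and from 0.352 to 3.24 in CoCM, also with overlap.

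By role, medians of the fold changes against Ctrl were -0.25, -0.35 and -0.56 for 5 genes of the C3 and C5 convertases in CoCM, i.p. and i.v., and -0.61, -0.48 and -0.48 for 6 receptors, of which 6 of 6 were negative in each comparison. Without animals 36 to 39 the convertase medians were -0.012, -0.15 and -0.13 and C4a and C4b turned to 0.018 and 0.012 for i.p.; the receptor medians were -0.41, -0.26 and -0.10, and the receptor Cd93 turned to 0.057 for i.p. and 0.11 for i.v. ABCB5+. In the convertase role the substrate C4a was the most abundant (320.2 ± 149 TPM, SD, n = 24), followed by C4b (43.4 ± 23.1 TPM); these genes are near-identical copies, so the division of reads between them is uncertain. The 6 membrane regulators had medians of 0.13, 0.086 and -0.13 (0.057, 0.18 and 0.075 without animals 36 to 39), with Cd59 (listed as Cd59b), the inhibitor of the membrane attack complex, at 373 ± 84.9 TPM and Cr1l at 96.4 ± 13.4 TPM. The 6 soluble regulators had medians of -0.28, -0.18 and -0.38 (-0.20, -0.064 and -0.070 without animals 36 to 39). Among them Clu, encoding clusterin, reached 1074 ± 482 TPM (SD, n = 24). For 6 lectin pathway genes the medians were 0.0041, -0.11 and -0.10 (0.16, -0.012 and -0.049 without the 4 animals). For 3 terminal pathway genes they were -0.61, -0.50 and 0.47 (-0.38, -0.62 and 0.015 without the 4 animals). The lectin Mbl1 averaged 17.8 ± 15.1 TPM and Colec12 13.8 ± 6.82 TPM, and of the terminal pathway C8g averaged 12.4 ± 3.42 TPM and C6 3.39 ± 1.90 TPM. Itgb2, a chain of the receptors for C3 fragments, averaged 28.3 ± 12.4 TPM and the C5a receptor C5ar1 14.05 ± 6.88 TPM (SD, n = 24).

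In animals 36 to 39 the low values extended to the neighbouring steps of the cascade but not to every complement gene. C2 stood at 0.068 to 0.132 of the median of the other animals of the same group, C4a at 0.041 to 0.173 and C4b at 0.017 to 0.059. Clu stood at 0.085 to 0.157 and Cfi, which cleaves C3b, at 0.059 to 0.099. The receptor genes C5ar1 (0.094 to 0.310) and Itgb2 (0.158 to 0.288) were low as well. By contrast Mbl1 was at 1.81 to 5.13, C8g at 1.13 to 1.90, Cpn1 at 1.10 to 1.58 and Cd59 at 1.07 to 1.62 of the group median, above it in 4 of 4 animals. Cd55 and Cd59 guard host membranes, and Cd55 was above its group median in 3 of 4. The other membrane regulators differed. Cr1l stood at 0.61 to 0.83 and Susd4 at 0.097 to 0.22, and Cr2 was listed at 0 in 4 of 4. Cd46 was below its group median in 3 of 4 and at 1.24 in animal 39. Csmd1, at 0.130 to 0.829 TPM over all animals, stood at 2.46 in animal 39, 2.15 in 36, 0.99 in 38 and 0.67 in 37.

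**Figure D5:**
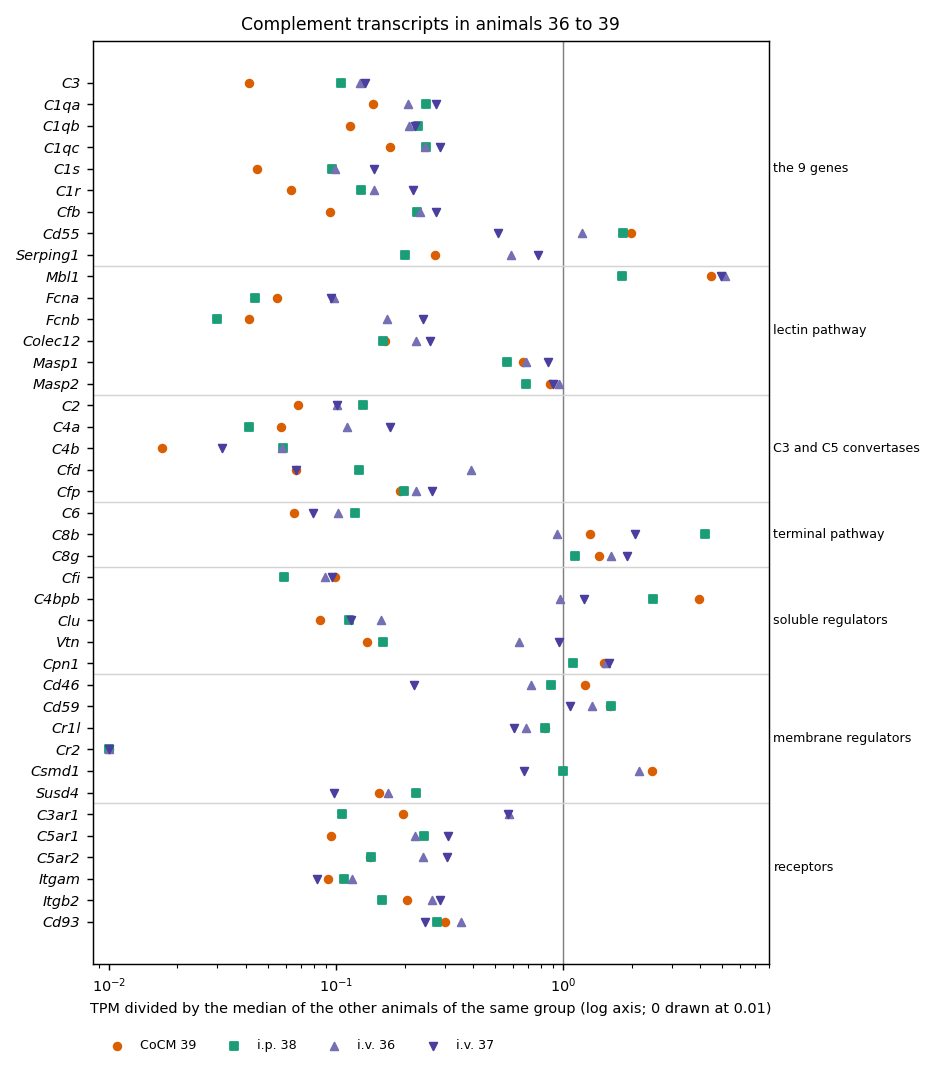
TPM of the 9 genes and of other tested complement genes in animals 39, 38, 36 and 37, divided by the median of the other animals of the same group (log axis, 1 at the grey line, 0 drawn at 0.01), ordered by role. C3, the C1 genes, C2, C4a, C4b, Clu and Cfi lie left of 0.3 in all 4 animals, while Mbl1, C8g, Cpn1 and Cd59 lie right of 1.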

How the data were processed

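Total RNA of whole left kidney was sequenced by the authors on a BGISEQ-500 instrument. The submitters' processing notes list Trim Galore 0.6.4, kallisto 0.4.6 (as written there) and the build rn6, without their roles. The deposited files hold estimated counts and TPM per Entrez gene and animal; the authors named a human gene annotation package and DESeq2 in their methods. Groups and animal numbers were taken from the labels. Here the estimated counts were rounded, filtered with filterByExpr and scaled by TMM, and fitted over all 24 animals with the quasi-likelihood test of edgeR 4.0.16 (R 4.3.3) with Benjamini-Hochberg adjustment; the script was tested on simulated data. DESeq2 1.42.0, limma 3.58.1 on log2(TPM + 1), limma voom with sample quality weights, median-ratio size factors, no filter, at least 10 counts in every sample, only the compared groups and each animal left out served as alternatives; leaving out animals 36 to 39 together was added after seeing the data. Correlations used 100000 permutations. The genes and lists were chosen with earlier results of these data known. The other complement genes named are those with the highest mean TPM per role (up to 2) or an unadjusted p under 0.05 against Ctrl (up to 4), while C2, Cfi, Cpn1, Cd93, Susd4, Cr2, Cd46 and Csmd1 were named after their values were seen. One gene of the pathway that this rule names is not reported here. Colec11, C5, C7 and Itgax were not analysed here. The precision is limited by 6 animals per group.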

Additional observations from a re-analysis of the deposited data

Results flagged for a closer look

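For 9 genes in 4 groups of 6 animals, the gap between the most extreme animal and its nearest neighbour was compared with the range of the group (Dixon's test at the 95% level). Of 36 such comparisons 2 exceeded the value, where chance gives about 1.8. Cfb in CoCM animal 39 stood at 1.41 TPM, with the other 5 animals at 11.1 to 16.35 TPM and a gap of 0.646 of the range. Cd55 in the same animal stood at 23.85 TPM, with the others at 9.27 to 14.06 TPM and a gap of 0.672. This animal had the lowest summed macrophage and lymphocyte marker levels of the series, 277 and 13.5 TPM, whose part in these values was not tested.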

How the results depend on the processing

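No complement gene of the 9 was called under any alternative or with any animal left out. Of the fold changes of the 9 genes against Ctrl, their medians and the median between routes, 231 values under alternatives and 724 with 1 animal left out kept their direction and their side of the threshold, 17 and 20 turned direction and 0 became significant. Cd55 turned with limma on TPM (-0.132 for CoCM, -0.050 for i.p., -0.090 for i.v.), with limma voom and sample quality weights (-0.230, -0.147, -0.019) and without animals 36 to 39 (-0.236, -0.178, -0.032), and in i.v. without a filter (-0.002) or with at least 10 counts (-0.008). For limma on TPM the medians over all genes tested were also below 0, at -0.097, -0.049 and -0.064, with 67.4%, 64% and 65.1% of genes below 0. C3 turned without animals 36 to 39 (0.014 for i.p., 0.022 for i.v.) and with voom for i.v. (0.008), and C1qb for CoCM reached 0.000 without them. The median between routes turned to -0.015 with voom and -0.124 without animals 36 to 39. The CoCM median of the 9 genes kept its direction but moved from -0.336 in the main fit to -0.692 with limma on TPM. With 1 animal left out, Cd55 ranged from -0.223 to 0.125 for CoCM, -0.182 to 0.126 for i.p. and -0.118 to 0.088 for i.v., C3 for i.p. from -0.631 to 0.020 (positive without control animal 1), C1qb for CoCM from -0.501 to 0.006 (positive without animal 39), and the median between routes from -0.118 to 0.281. Over all genes, CoCM against Ctrl had 1 call, which became 75 with DESeq2, 183 with voom and its weights, 0 with only the compared groups, limma on TPM or without animals 36 to 39, and 0 to 31 with 1 animal left out (31 without control animal 23). DESeq2 called 1 gene for i.p., 1 for i.v., 2 between routes and 10 over the 4 groups, and voom 1 over the 4 groups, where leaving out 1 animal gave 0 to 1. The causes were not tested. No paired analysis was possible because the groups share no animal numbers.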
